A study of Mus musculus with 24 samples.

Results

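The 8 genes described here, Herpud1, Hspa5, Ddit3, Atf4, Xbp1, Trib3, Asns and Chac1, are markers of endoplasmic reticulum (ER) stress and of the transcription factor ATF4. They were taken by name from a 2-colour mouse heart array, each read from its brightest probe, and all 8 were among the 11419 genes whose heart signal was bright enough to test. Hearts came from MuRF1 Tg+ mice and strain-matched wild-type (MuRF1+/+) mice, 12 to 16 weeks old. MuRF1, the product of Trim63, is a ubiquitin ligase of muscle. The mice had either ischemia-reperfusion (I/R), a coronary tie on the left anterior descending artery that is later opened, or a sham operation. Tissue below the tie (or below where it would have been) and tissue above it were measured separately.

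The groups were Tg+ I/R below, Tg+ I/R above, wild-type I/R below, wild-type I/R above, Tg+ sham below, Tg+ sham above, wild-type sham below and wild-type sham above, with 3 arrays each and 24 in all. Heart RNA carried Cy5, and pooled RNA of whole C57BL/6 pups at postnatal day 1 carried Cy3 on every array, so each value is a log2 ratio of heart to pup. The sources used here give neither the promoter that drives the transgene nor the time of reperfusion. The labels call the replicates biological, 3 per genotype and surgery, with both pieces taken from each heart.

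The ER is where secreted and membrane proteins fold. When unfolded proteins collect there, sensors in its membrane (PERK, IRE1 and ATF6) start the unfolded protein response, which slows translation and raises chaperones and the machinery that exports misfolded proteins for degradation. PERK and other kinases phosphorylate eIF2 alpha, which favours translation of ATF4, and ATF4 turns on genes of amino acid supply and, when stress lasts, of cell death. In the heart this response is known to be engaged by ischemia and by reperfusion.

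Each gene was read by a single 60-base probe, apart from Trib3, which had 2. The probes of the 3 genes that passed the test in a comparison of I/R with sham are shown because the results turn on them.
Herpud1 probe A_51_P434101: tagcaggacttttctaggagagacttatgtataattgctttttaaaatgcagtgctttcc
Ddit3 probe A_52_P533146: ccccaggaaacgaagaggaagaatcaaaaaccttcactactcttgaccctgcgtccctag
Asns probe A_51_P125745: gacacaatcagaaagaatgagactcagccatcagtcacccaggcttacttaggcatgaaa

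Promoter windows of RefSeq (GRCm38.p6, 250 bases before to 50 after the start of the gene, read 5′ to 3′ on the gene's strand) were found for all 8 genes and searched on both strands for 4 motifs of this response. The windows of the called genes and of Hspa5, the standard marker of the response, are printed with any motif match in capitals.
Herpud1, chr8:94386179-94386478, forward strand: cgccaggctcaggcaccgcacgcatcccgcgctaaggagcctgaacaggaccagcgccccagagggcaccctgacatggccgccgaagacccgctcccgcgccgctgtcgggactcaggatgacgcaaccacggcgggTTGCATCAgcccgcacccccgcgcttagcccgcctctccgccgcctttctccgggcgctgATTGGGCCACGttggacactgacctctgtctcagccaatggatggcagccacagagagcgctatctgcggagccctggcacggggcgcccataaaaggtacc
Hspa5, chr2:34771840-34772139, forward strand: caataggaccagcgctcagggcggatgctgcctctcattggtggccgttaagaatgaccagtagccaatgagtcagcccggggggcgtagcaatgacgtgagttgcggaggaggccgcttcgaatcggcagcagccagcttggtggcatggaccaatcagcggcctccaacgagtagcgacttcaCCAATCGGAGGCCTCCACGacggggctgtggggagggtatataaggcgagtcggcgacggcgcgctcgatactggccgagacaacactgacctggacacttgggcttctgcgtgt
Ddit3, chr10:127290543-127290842, forward strand: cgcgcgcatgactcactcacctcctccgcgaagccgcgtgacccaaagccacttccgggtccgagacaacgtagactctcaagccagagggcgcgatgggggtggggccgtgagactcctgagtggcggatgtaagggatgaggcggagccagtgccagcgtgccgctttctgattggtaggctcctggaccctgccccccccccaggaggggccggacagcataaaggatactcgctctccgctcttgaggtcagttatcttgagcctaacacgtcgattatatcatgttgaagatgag
Asns, chr6:7693160-7693459, reverse strand: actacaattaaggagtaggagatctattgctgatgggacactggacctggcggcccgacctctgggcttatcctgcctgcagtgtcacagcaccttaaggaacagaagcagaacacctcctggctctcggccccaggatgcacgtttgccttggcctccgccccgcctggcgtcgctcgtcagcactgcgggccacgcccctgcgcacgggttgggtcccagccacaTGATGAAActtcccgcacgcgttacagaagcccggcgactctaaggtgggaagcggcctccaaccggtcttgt

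The Hspa5 window holds the ER stress response element (ERSE, CCAAT followed after 9 bases by CCACG), which 0.119% of all 32851 windows of that length hold. The Herpud1 window holds ERSE-II (ATTGG followed after 1 base by CCACG), found in 0.0365% of windows, and, on the opposite strand, a C/EBP-ATF response element (TGATGNAA), the kind of site ATF4 binds. That element was in 4 of the 8 windows, those of Herpud1, Trib3, Asns and Chac1, and in 3.97% of all windows. The core of the element bound by XBP1 (TGACGTGG) was in none of the 8 and in 0.676% of all windows. These letters were not found in the windows of Ddit3, Atf4 and Xbp1. The matches describe sequence only.

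Heart RNA gave a weaker signal on some I/R arrays, and this bears on every result below. Between 9.9% and 38.3% of Cy5 spots were well above background on I/R arrays, against 34.6% to 43.3% on sham arrays, while the Cy3 share lay between 39.5% and 51.5%. On 5 arrays, called weak here, the Cy5 share was below 25%: Tg+ I/R below replicates 2 and 3, wild-type I/R below replicate 1, and wild-type I/R above replicates 1 and 2. All 10 ventricular cardiomyocyte markers were measured, 9 of them well above background on every array. Trim63 itself did not differ between sham Tg+ and wild-type hearts past the threshold (0.03 ± 0.39 above and -0.07 ± 0.39 below on the log2 scale, SE, limma adjusted p = 1 for both). This does not check the genotype labels, since the sources do not say if the transgene contains the probe.

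Herpud1 and Hspa5 were bright, with mean Cy5 signals of 1465 and 1638, and well above background on all 24 arrays. On the weak arrays Tg+ I/R below replicates 2 and 3, however, the Herpud1 signal was only 92.8 and 132. Local backgrounds there were 41.5 and 38, so on these arrays Herpud1 was as dim as the genes that follow. The other 6 genes were dim, with mean Cy5 signals of 57 (Trib3) to 84.3 (Xbp1) over local backgrounds of 28 to 42. They were well above background on 20 (Ddit3, Xbp1), 21 (Trib3, Chac1), 22 (Atf4) and 23 (Asns) of the 24 arrays. A constant of 50 added during background correction draws the ratios of dim genes toward 0, so the sizes of their differences depend on that correction. Precision is limited by the small number of arrays.

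**Figure D1:**
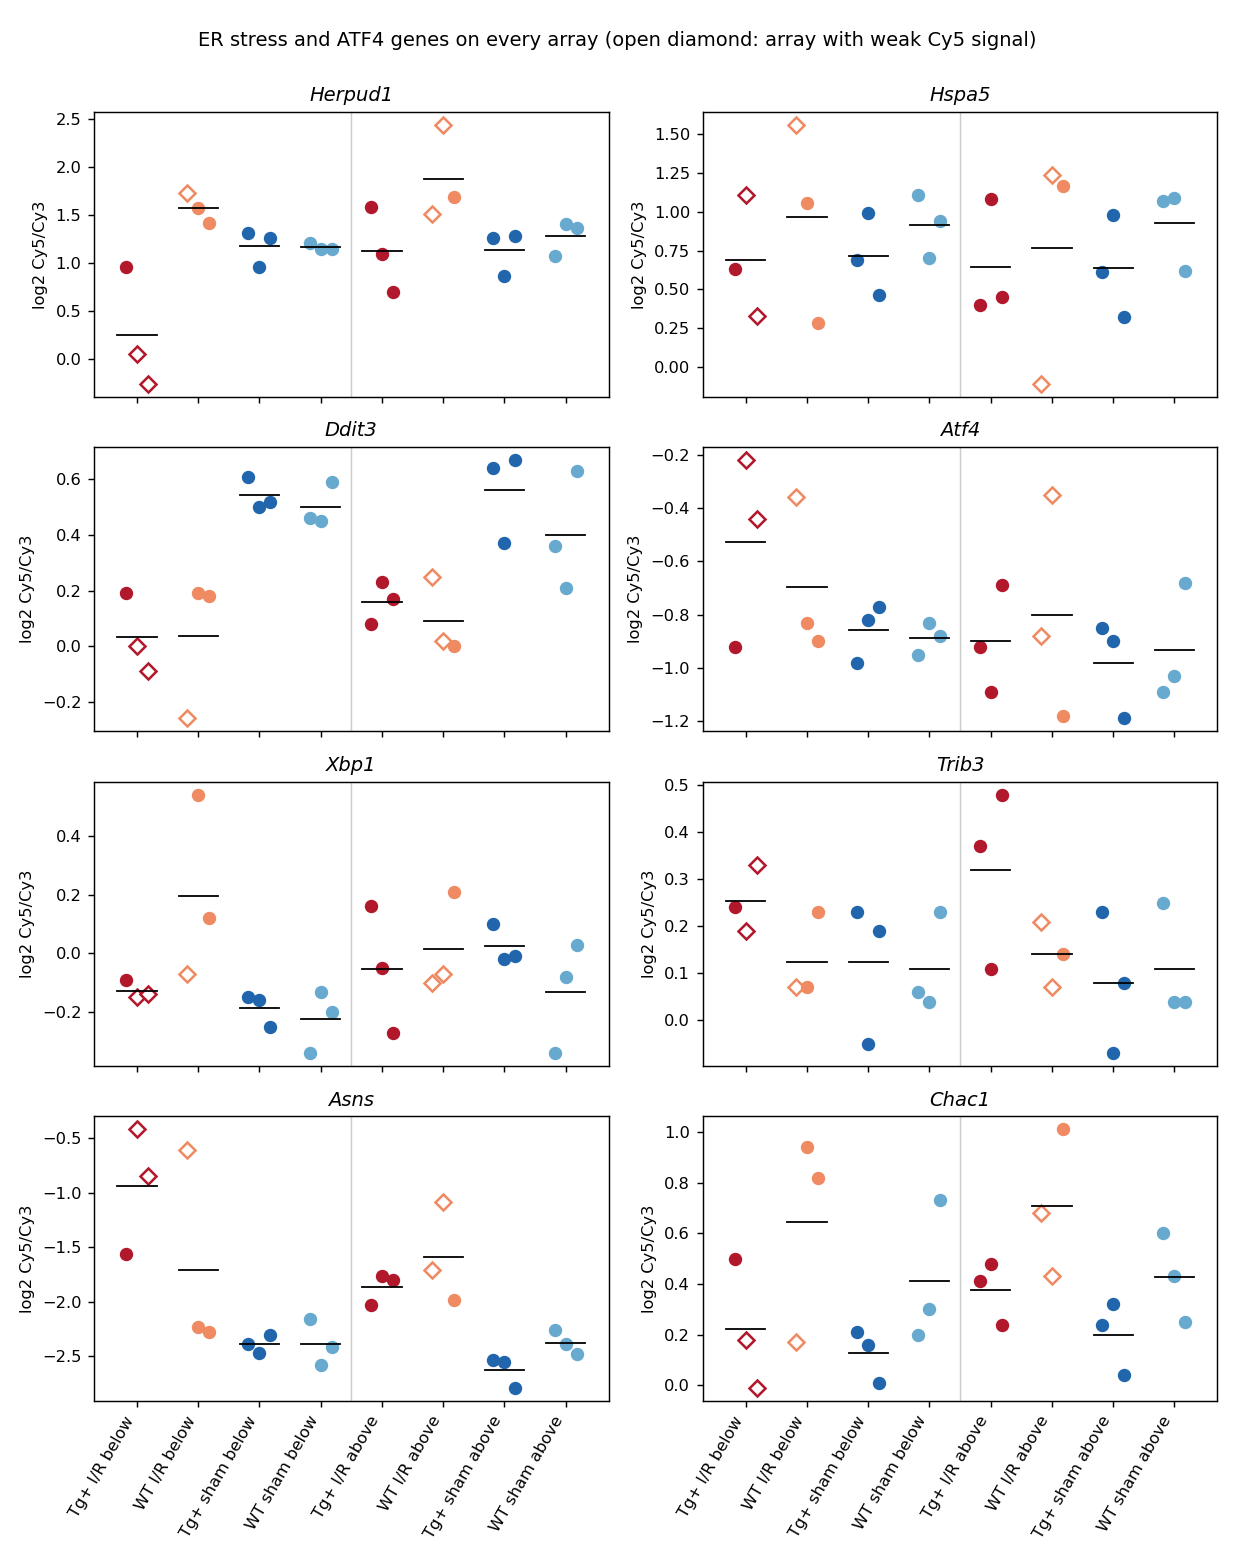
Log2 Cy5/Cy3 of each gene (vertical axes, separate scales) on every array, by group (horizontal axis; Tg+ and wild type (WT), I/R and sham, below and above the tie). Circles are arrays, open diamonds the 5 arrays with weak Cy5 signal, and bars group means (n = 3). Herpud1 is lowest in Tg+ I/R below, Ddit3 is lower on most I/R than sham arrays, and Asns is highest on the weak arrays.

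Herpud1 encodes an ER membrane protein with a ubiquitin-like domain that works in ER-associated degradation (ERAD), the export of misfolded proteins to the proteasome. It fell in the Tg+ tissue below the tie after I/R and ended below the wild-type level there, while the wild-type hearts had I/R values above all their sham values. Below the tie its log2 ratios were 0.96, 0.05 and -0.26 in Tg+ I/R hearts, against 1.31, 0.96 and 1.26 in Tg+ sham hearts. In wild-type hearts below the tie they were 1.73, 1.58 and 1.42 after I/R, against 1.21, 1.15 and 1.15 after sham surgery. Tg+ replicate 1 of I/R matched the lowest Tg+ sham array to 2 decimals, and the other 2 lay far under it, both on weak arrays.

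The I/R minus sham difference of Herpud1 below the tie was -0.93 ± 0.27 in Tg+ (SE, n = 3 each, limma adjusted p = 0.0144), a 1.9-fold fall. In wild type it was 0.40 ± 0.27 (adjusted p = 0.423), with groups that did not overlap. After I/R, Tg+ minus wild type below the tie was -1.32 ± 0.27 (adjusted p = 0.0205), 2.5-fold lower in Tg+, again without overlap of the groups. In sham hearts the same genotype difference was 0.01 ± 0.27 (adjusted p = 1). Of the 11419 genes, 0.0876% had a lower Tg+ minus wild-type value than Herpud1 in I/R tissue below the tie.

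The test of whether the I/R change of Herpud1 differed between genotypes below the tie gave -1.33 ± 0.38 (95% interval -2.12 to -0.54, unadjusted p = 0.00232 in limma) and did not pass after adjustment (adjusted p = 0.319). Without the 5 weak arrays, which leaves 1 Tg+ I/R array below the tie whose spread is assumed to be like that of the other groups, the Tg+ I/R minus sham difference was -0.22 (adjusted p = 0.596) and the Tg+ minus wild-type difference -0.54 (adjusted p = 0.19). Wild-type I/R below replicate 1 was the weakest array of all and had the highest Herpud1 ratio of its group, 1.73. Its Herpud1 Cy5 signal was 190, against 92.8 and 132 on Tg+ I/R below replicates 2 and 3. The part of weak signal in these differences was not tested.

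Above the tie the Herpud1 ratios were 1.59, 1.09 and 0.70 in Tg+ I/R hearts, against 1.26, 0.86 and 1.28 in Tg+ sham hearts. In wild type they were 1.51, 2.44 and 1.69 after I/R, against 1.07, 1.41 and 1.37 after sham. The Tg+ groups overlapped and the wild-type groups did not. The I/R minus sham difference was -0.01 ± 0.27 in Tg+ (limma adjusted p = 0.991) and 0.60 ± 0.27 in wild type (adjusted p = 0.137). Tg+ minus wild type after I/R was -0.75 ± 0.27 (adjusted p = 0.197). Ordered by mean, Herpud1 was 1.88 in wild-type I/R above, 1.57 in wild-type I/R below, 1.13 to 1.28 in the sham groups and Tg+ I/R above, and 0.25 in Tg+ I/R below. Neighbours in that order down to 1.13 differed by less than the SE of a difference or close to it, and Tg+ I/R below stood apart, with an SD of 0.63.

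Both calls of Herpud1 depended on single arrays and on the slide. The Tg+ I/R change below the tie did not pass when I/R replicate 2 (-0.83, adjusted p = 0.0673), I/R replicate 3 (-0.67, adjusted p = 0.0949) or sham replicate 1 (-0.86, adjusted p = 0.0549) was left out, and with slide as a block it was -0.90 (adjusted p = 0.175). On the 1 slide that held both groups it was -1.21, with the I/R array a weak one. The Tg+ minus wild-type difference after I/R did not pass when 1 of 4 arrays was left out: Tg+ replicate 2 (-1.22, adjusted p = 0.112) or 3 (-1.07, adjusted p = 0.179), or wild-type replicate 2 (-1.32, adjusted p = 0.0772) or 3 (-1.40, adjusted p = 0.0816). Nor did it pass with slide as a block (-1.39, limma adjusted p = 0.467) or with only the arrays of the comparison (-1.32, adjusted p = 0.657).

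Hspa5, also called BiP, is the main chaperone of the ER lumen and the standard marker of the unfolded protein response. It did not pass the test in any comparison, and its spread was wide. Below the tie the log2 ratios were 0.63, 1.11 and 0.33 in Tg+ I/R hearts, against 0.69, 0.99 and 0.46 in Tg+ sham hearts. In wild type they were 1.56, 1.06 and 0.28 after I/R, against 1.11, 0.70 and 0.94 after sham. Above the tie the ratios were 0.40, 1.08 and 0.45 in Tg+ I/R against 0.61, 0.98 and 0.32 in Tg+ sham, and -0.11, 1.24 and 1.17 in wild-type I/R against 1.07, 1.09 and 0.62 in wild-type sham. All of these groups overlapped.

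The I/R minus sham difference of Hspa5 was -0.02 ± 0.34 below and 0.01 ± 0.34 above in Tg+, and 0.05 ± 0.34 below and -0.16 ± 0.34 above in wild type (limma adjusted p = 0.959, 0.988, 0.952 and 0.768). The 95% intervals ran from -0.73 to 0.68, -0.70 to 0.71, -0.66 to 0.76 and -0.86 to 0.55, so changes within them were not excluded. The mean SD within a group was 0.55 on I/R and 0.27 on sham arrays. The lowest and the highest ratio of Hspa5 in the data, -0.11 and 1.56, were both on weak arrays. Herpud1 and Hspa5, which both carry an ER stress element in the windows above, had a Pearson r of 0.21 over the 24 arrays and 0.02 over the 19 that were not weak. All arrays share the pup reference, and these r are descriptions.

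**Figure D2:**
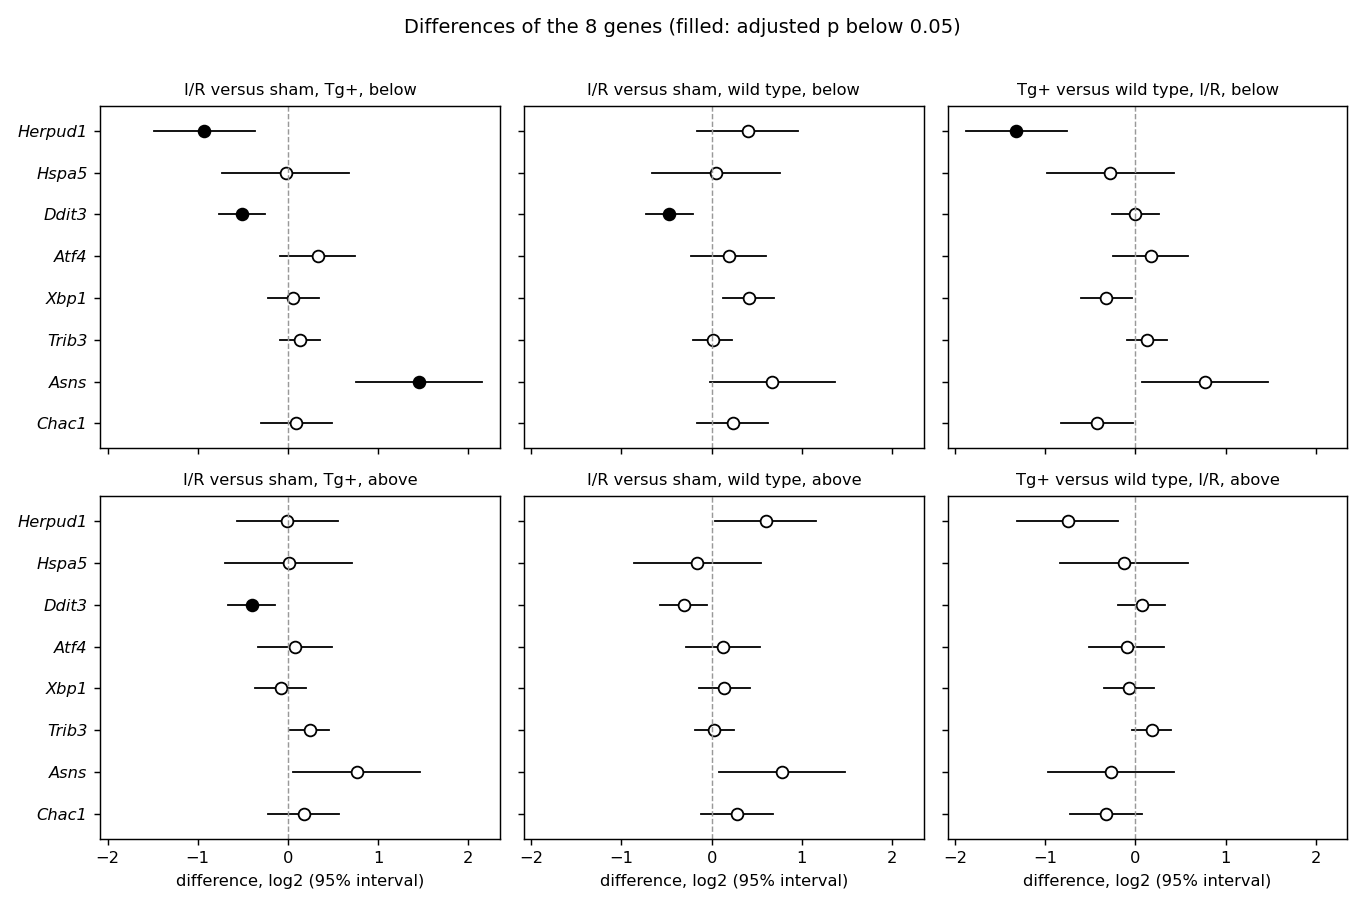
Differences of the 8 genes in log2 units (horizontal axes; points with 95% intervals of the limma fit, n = 3 arrays per group) for I/R versus sham in each genotype and Tg+ versus wild type after I/R; top row below and bottom row above the tie. Filled points passed the threshold: Herpud1, Ddit3 and Asns in Tg+ below, Ddit3 in wild type below and Tg+ above, and Herpud1 in the genotype comparison below.

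Ddit3 encodes CHOP, a transcription factor that promotes cell death when ER stress lasts. It fell after I/R in 3 of the 4 comparisons with sham. Below the tie its log2 ratios were 0.19, 0 and -0.09 in Tg+ I/R hearts, against 0.61, 0.50 and 0.52 in Tg+ sham hearts. In wild type below they were -0.26, 0.19 and 0.18 after I/R, against 0.46, 0.45 and 0.59 after sham. Every I/R array was lower than every sham array in both genotypes. Above the tie the ratios were 0.08, 0.23 and 0.17 in Tg+ I/R against 0.64, 0.37 and 0.67 in Tg+ sham, and again did not overlap. In wild type above they were 0.25, 0.02 and 0 after I/R against 0.36, 0.21 and 0.63 after sham, and the groups overlapped.

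The I/R minus sham difference of Ddit3 was -0.51 ± 0.12 below (limma adjusted p = 0.00585) and -0.40 ± 0.12 above (adjusted p = 0.0345) in Tg+. In wild type it was -0.47 ± 0.12 below (adjusted p = 0.0341) and -0.31 ± 0.12 above (adjusted p = 0.0948). Tg+ minus wild type after I/R was 0.00 ± 0.12 below (95% interval -0.26 to 0.26) and 0.07 ± 0.12 above, neither past the threshold. The genotype by surgery difference was -0.04 ± 0.18 below and -0.09 ± 0.18 above (limma adjusted p = 0.924 and 0.986).

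Ddit3 was near the floor of the heart channel. Its Cy5 signal ran from 36.4 to 116, and it was well above background on 1 of 3 Tg+ I/R arrays and 2 of 3 wild-type I/R arrays below the tie, but on all Tg+ I/R arrays above the tie and all sham arrays. With Agilent's own ratio its I/R minus sham difference was -1.16 in Tg+ below (limma adjusted p = 0.0274), -0.72 in Tg+ above (adjusted p = 0.279) and -1.17 in wild type below (adjusted p = 0.104), so the size of the change is not fixed by these data. With the Cy5 channel alone the call held in Tg+ below (-0.59, adjusted p = 0.00806) and was lost in Tg+ above (-0.25, adjusted p = 0.376) and wild type below (-0.45, adjusted p = 0.11). Over the weak arrays its ratio lay between -0.26 and 0.25, over the other I/R arrays between 0 and 0.23, and over sham arrays between 0.21 and 0.67. With the weak arrays left out, the Ddit3 difference was -0.35 in Tg+ below (adjusted p = 0.0995), -0.32 in wild type below (adjusted p = 0.0691) and -0.40 in Tg+ above (adjusted p = 0.00382). With slide as a block none of the 3 passed (-0.53, -0.54 and -0.44, adjusted p = 0.102, 0.223 and 0.13), and on the single shared slides the differences were -0.52, -0.41 and -0.44. The Tg+ call below held with any 1 array left out. The wild-type call below was lost without I/R replicate 1 or any 1 of the sham arrays (-0.49 to -0.32), and the Tg+ call above without any 1 array except sham replicate 2 (-0.44 to -0.35).

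Atf4 encodes the transcription factor at the centre of this pathway, which is controlled mainly through translation, so its transcript is an incomplete readout. Its log2 ratios below the tie were -0.92, -0.22 and -0.44 in Tg+ I/R hearts, against -0.98, -0.82 and -0.77 in Tg+ sham hearts. In wild type below they were -0.36, -0.83 and -0.90 after I/R, against -0.95, -0.83 and -0.88 after sham. The 3 high values, -0.22, -0.44 and -0.36, were all on weak arrays. Above the tie the ratios ran from -1.18 to -0.35 over the I/R arrays and from -1.19 to -0.68 over the sham arrays. No comparison passed. The largest I/R minus sham difference, 0.33 ± 0.20 in Tg+ below (limma adjusted p = 0.198), was -0.07 (adjusted p = 0.832) without the weak arrays.

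Xbp1 encodes the transcription factor that IRE1 activates by splicing its messenger RNA, and splicing was not measured here. Below the tie its log2 ratios were -0.09, -0.15 and -0.14 in Tg+ I/R hearts, against -0.15, -0.16 and -0.25 in Tg+ sham hearts. In wild type they were -0.07, 0.54 and 0.12 after I/R, against -0.34, -0.13 and -0.20 after sham. The wild-type groups did not overlap, and the difference was 0.41 ± 0.13 (limma adjusted p = 0.0776). In Tg+ it was 0.06 ± 0.13 (adjusted p = 0.736), and Tg+ minus wild type after I/R was -0.32 ± 0.13 (adjusted p = 0.157). When the weak arrays were dropped, the wild-type difference was 0.55 (adjusted p = 0.0145). Above the tie the differences were -0.08 ± 0.13 in Tg+ and 0.14 ± 0.13 in wild type, neither past the threshold.

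Asns, Trib3 and Chac1 are target genes of ATF4. Asns encodes asparagine synthetase, which makes asparagine from aspartate. It had higher mean ratios after I/R in all 4 comparisons with sham and rose past the threshold in Tg+ tissue below the tie. There its log2 ratios were -1.56, -0.42 and -0.85 in Tg+ I/R hearts, against -2.39, -2.47 and -2.30 in Tg+ sham hearts. In wild type below they were -0.61, -2.23 and -2.28 after I/R, against -2.16, -2.58 and -2.41 after sham. Every Tg+ I/R array was above every Tg+ sham array, whereas in wild type only the weak array stood clear of sham.

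Above the tie the Asns ratios were -2.03, -1.76 and -1.80 in Tg+ I/R, against -2.53, -2.55 and -2.79 in Tg+ sham. In wild type above they were -1.71, -1.09 and -1.98 after I/R, against -2.26, -2.39 and -2.48 after sham. Neither pair of groups overlapped. The I/R minus sham difference was 1.45 ± 0.33 in Tg+ below (limma adjusted p = 0.00399), a 2.73-fold rise, 0.76 ± 0.33 in Tg+ above (adjusted p = 0.123), 0.67 ± 0.33 in wild type below (adjusted p = 0.259) and 0.78 ± 0.33 in wild type above (adjusted p = 0.12). Tg+ minus wild type after I/R was 0.77 ± 0.33 below (adjusted p = 0.167) and -0.27 ± 0.33 above (adjusted p = 0.766).

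The Asns ratio moved with the signal of the array. It was -1.71 to -0.42 on the 5 weak arrays, -2.28 to -1.56 on the other 7 I/R arrays and -2.79 to -2.16 on the 12 sham arrays. The Tg+ difference below, 1.45 with these ratios, was 2.34 with Agilent's own ratio (limma adjusted p = 4.29e-05) and 1.36 with the Cy5 channel alone (adjusted p = 1e-04). Tg+ minus wild type after I/R below was 1.22 (adjusted p = 0.0155) and 0.67 (adjusted p = 0.031) in the same 2 settings. Without the weak arrays the Tg+ difference was 0.83 below (adjusted p = 0.00167, 1 I/R array left) and 0.76 above (adjusted p = 5.31e-05), and Tg+ minus wild type after I/R below was 0.70 (adjusted p = 0.0209), beside 7.69% of all genes past the threshold there. With slide as a block the Tg+ difference below was 1.51 (adjusted p = 0.114).

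**Figure D3:**
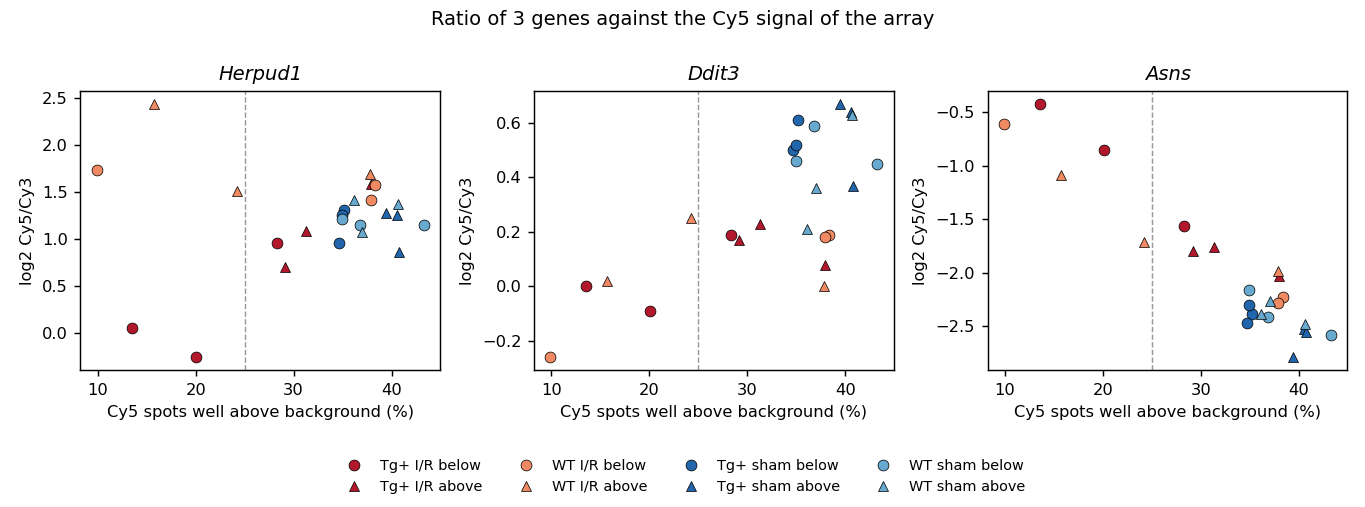
Log2 Cy5/Cy3 of Herpud1, Ddit3 and Asns (vertical axes) against the percentage of Cy5 spots well above background on the array (horizontal axes); each point is 1 array, and the dashed line marks 25%. Asns is higher where the Cy5 share is lower, Ddit3 is 0.25 or less on all arrays left of the line, and Herpud1 on those arrays lies both above and below the sham arrays.

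Trib3 encodes a pseudokinase that restrains ATF4 activity, and Chac1 an enzyme that degrades glutathione. Neither passed the test in any comparison with these ratios. Trib3 passed in Tg+ below with Agilent's own ratio (1.01, limma adjusted p = 0.0195) and with the Cy5 channel alone (0.33, adjusted p = 0.0463), and in Tg+ above with no background correction (0.36, adjusted p = 0.0305). The Trib3 ratios after I/R were 0.24, 0.19 and 0.33 in Tg+ below and 0.37, 0.11 and 0.48 in Tg+ above, against 0.23, -0.05 and 0.19 in Tg+ sham below and 0.23, -0.07 and 0.08 in Tg+ sham above. In wild type all 12 values lay between 0.04 and 0.25. The largest difference was 0.24 ± 0.10 in Tg+ above (limma adjusted p = 0.118). The second Trib3 probe stayed near background on all arrays and was not tested.

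Chac1 ratios below the tie were 0.50, 0.18 and -0.01 in Tg+ I/R, against 0.21, 0.16 and 0.01 in Tg+ sham, and 0.17, 0.94 and 0.82 in wild-type I/R, against 0.20, 0.30 and 0.73 in wild-type sham. Above the tie they were 0.41, 0.48 and 0.24 in Tg+ I/R, against 0.24, 0.32 and 0.04 in Tg+ sham, and 0.68, 0.43 and 1.01 in wild-type I/R, against 0.60, 0.43 and 0.25 in wild-type sham. The groups overlapped in each pair. The I/R minus sham difference ran from 0.09 ± 0.19 (Tg+ below) to 0.28 ± 0.19 (wild type above). With the weak arrays left out, the wild-type difference was 0.59 above (limma adjusted p = 0.0375, 1 I/R array left) and 0.47 below (adjusted p = 0.0375). With the Cy5 channel alone and all arrays, the difference above was 0.55 (adjusted p = 0.0317).

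Of the 8 genes, 3 passed the threshold in Tg+ below after I/R (1 higher, 2 lower), where 32.5% of all genes did. In Tg+ above 1 passed, against 15.3% of all genes. In wild type below 1 passed, against 5.6% of all genes (38.2% of them higher with these ratios and 51.2% with Agilent's own), and in wild type above none did, against 13.3%. By limma's unadjusted p, 3, 3, 2 and 3 of the 8 had a p below 0.05 in Tg+ below, Tg+ above, wild type below and wild type above. The share of all genes at that cutoff was not counted, here or for the comparisons that follow. Groups that did not overlap were found for 3 of the 8 genes in Tg+ below, 2 in Tg+ above, 3 in wild type below and 2 in wild type above, where they were found for 53.6%, 48.7%, 22.9% and 33.9% of all genes. The median difference of the 8 genes was 0.08, 0.04, 0.21 and 0.13 in the same order, beside 0 over all genes each time. The counts of the 8 genes were near the background of each comparison. Without the weak arrays, Tg+ below and wild type above keep 1 I/R array each, whose spread is assumed to be like that of the other groups. Counts without them are therefore not directly comparable with those above. When the weak arrays were dropped, the number past the threshold was 1 (Asns) in Tg+ below, 2 (Ddit3 and Asns) in Tg+ above, 2 (Xbp1 and Chac1) in wild type below and 1 (Chac1) in wild type above. All-gene shares past the threshold were then 13.5%, 41.7%, 11.8% and 12.9% in that order.

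For Tg+ against wild type after I/R, 1 of the 8 genes passed below the tie, Herpud1, beside 2.9% of all genes. There 4 of the 8 had a limma unadjusted p below 0.05. Groups did not overlap for 2 of the 8, Herpud1 and Xbp1, beside 11%. Above the tie none passed, beside 0.657% of all genes, with 1 of the 8 at a limma unadjusted p below 0.05 and none without overlap, beside 14.8%. In sham hearts none of the 8 passed above or below, beside 0.035% and 0.0263% of all genes, and none had an unadjusted p below 0.05.

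Tissue below against above the tie gave no call among the 8 genes in Tg+ I/R, wild-type I/R, Tg+ sham or wild-type sham hearts, beside 0.482%, 0.0175%, 0% and 0% of all genes, and 2, 0, 0 and 0 of the 8 had a limma unadjusted p below 0.05. The 2 were Herpud1 (-0.88 ± 0.27, adjusted p = 0.107) and Asns (0.92 ± 0.33, adjusted p = 0.146) in Tg+ I/R hearts. Groups did not overlap there for 1 of the 8 genes, Asns, beside 23% of all genes. In Tg+ sham hearts they did not overlap for 2 of the 8, Asns and Xbp1, beside 18.3% of all genes. The labels do not state that a replicate number marks the same heart above and below the tie. Within the 3 same-numbered pairs of pieces, below minus above was -0.63, -1.04 and -0.96 for Herpud1 and 0.47, 1.34 and 0.95 for Asns. Each pair thus moved the same way. The Tg+ sham pairs also shared a direction for some of the 8 genes, Asns among them (0.14, 0.07 and 0.49). How many of all genes did so was not counted. With each same-numbered pair taken as 1 heart and fitted as a fixed block, Herpud1 passed (-0.88, limma adjusted p = 0.0432), beside 0.963% of all genes. Asns did not (0.92, adjusted p = 0.134). The genotype by surgery test called none of the 8 below or above, beside 0.0175% of all genes in each. The piece by surgery test called none in Tg+ or wild type, beside 0% in each. By unadjusted p below 0.05 these gave 1 (Herpud1), 0, 1 (Herpud1) and 0 of the 8.

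By likeness over the 24 arrays, the genes closest to Herpud1 were Map1lc3b (Pearson r = 0.95), Aldh6a1 (0.94) and LOC637313 (0.93). Closest to Ddit3 were Asb1, Actc1 and Acot7 (0.91 each). Closest to Asns were Rps20, Rps28 and Rpl38 (0.99 each), all genes of ribosomal proteins. Among the 8 genes the strongest pairs were Ddit3 with Asns (-0.82, and -0.71 over the 19 arrays that were not weak) and Atf4 with Asns (0.76, and -0.04 over those 19). All arrays share 1 reference and the groups differ in signal, so these are descriptions.

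Other genes of the pathway were described by lists, matched by gene symbol. A listed gene counts as not tested if its signal failed the filter, or if it is absent from the array or under another symbol there. Of the other target genes of ATF4, 18 of 28 were tested. In Tg+ below 8 rose and 1 fell after I/R, in Tg+ above 5 rose, in wild type below 4 rose and in wild type above 5 rose. Over all genes the shares higher and lower were 15.3% and 17.1%, 6.94% and 8.38%, 2.14% and 3.46%, and 5.96% and 7.3%. Median differences of the list were 0.48, 0.36, 0.24 and 0.32. Without the weak arrays the counts higher and lower were 4 and 0, 11 and 1, 6 and 0, and 5 and 0, beside all-gene shares of 6.79% and 6.71%, 22.1% and 19.7%, 5.14% and 6.66%, and 7.39% and 5.54%. These shares are the background for every list that follows as well. In every list, the counts without the weak arrays rest on 1 I/R array in Tg+ below and 1 in wild type above.

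Cebpb, a transcription factor that pairs with ATF4, rose in all 4 comparisons, by 1.33 ± 0.21 in Tg+ below, 0.74 ± 0.21 in Tg+ above, 1.20 ± 0.21 in wild type below and 1.58 ± 0.21 in wild type above (limma adjusted p = 0.000254, 0.0217, 0.00235 and 0.000142). Ddit4, an inhibitor of mTORC1 signalling, rose by 1.83 ± 0.29, 2.10 ± 0.29, 1.05 ± 0.29 and 1.26 ± 0.29 in the same order (adjusted p = 0.000334, 0.000266, 0.0431 and 0.00912). Psph, which makes serine from phosphoserine, rose by 0.55 ± 0.08 in Tg+ below (adjusted p = 0.000121) and by 0.50 ± 0.08 in wild type above (adjusted p = 0.000588). Vldlr, a lipoprotein receptor, fell by 0.70 in Tg+ below (adjusted p = 0.000896).

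Of the genes of ERAD and of translocation into the ER, 23 of 25 were tested. In Tg+ below 6 rose and 1 fell, in Tg+ above 4 rose and 1 fell, in wild type below 2 rose and in wild type above 4 rose. With the weak arrays left out, the counts were 5 and 1, 8 and 3, 4 and 1, and 6 and 0. Ube2j1, an ER-anchored ubiquitin-conjugating enzyme of ERAD, rose in all 4: by 0.60 ± 0.11 and 0.49 ± 0.11 in Tg+ below and above (limma adjusted p = 0.00103 and 0.00886), and by 0.80 ± 0.11 and 0.96 ± 0.11 in wild type below and above (adjusted p = 0.000573 and 8.5e-05). Sec61b and Sec61g, subunits of the translocation channel, rose in Tg+ below by 1.26 ± 0.18 and 1.44 ± 0.26 (adjusted p = 0.000107 and 0.00084).

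Of the ER chaperones and folding enzymes 20 of 21 were tested, and none fell. In Tg+ below 2 rose, in Tg+ above 5, in wild type below 1 and in wild type above 2, with medians of 0.25, 0.25, 0.07 and 0.20. When the weak arrays were dropped, the counts were 1, 10, 1 and 10. Ppib, an ER prolyl isomerase, rose in Tg+ by 1.10 ± 0.20 below (limma adjusted p = 0.000783) and 0.84 ± 0.20 above (adjusted p = 0.00963). Dnajc10, an ER disulfide reductase, rose by 0.37 ± 0.08 in Tg+ above (adjusted p = 0.00485) and 0.27 ± 0.08 in wild type above (adjusted p = 0.0309). Erp44, which retains secretory proteins in the early secretory pathway, and Dnajc3, a co-chaperone of Hspa5 that also inhibits eIF2 alpha kinases, rose in Tg+ above by 0.31 ± 0.09 and 0.54 ± 0.17 (adjusted p = 0.0315 and 0.0338).

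Among the sensors and regulators of eIF2 alpha, 12 of 17 were tested, none fell, and 3, 3, 1 and 0 rose in Tg+ below, Tg+ above, wild type below and wild type above. Without the weak arrays the counts higher were 2, 4, 1 and 2, and 1 fell in Tg+ above. Ppp1r15a, the phosphatase subunit that reverses eIF2 alpha phosphorylation, rose by 0.35 ± 0.09, 0.46 ± 0.09 and 0.34 ± 0.09 in the first 3 of these (limma adjusted p = 0.00774, 0.00323 and 0.0326). Creb3, an ER-bound transcription factor, rose in Tg+ by 0.33 ± 0.10 below and above (adjusted p = 0.0145 and 0.0265). Mbtps1, the protease that cuts ATF6, rose by 0.69 ± 0.21 in Tg+ below (adjusted p = 0.0186).

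Of the genes of ER stress cell death 9 of 11 were tested: 2 rose and 1 fell in Tg+ below, 2 rose in Tg+ above, none passed in wild type below and 1 fell in wild type above. With the weak arrays left out, 1 fell in Tg+ below, 3 rose in Tg+ above, 1 fell in wild type below and 1 rose in wild type above. Bak1, which permeabilises mitochondria, rose in Tg+ by 0.40 ± 0.08 below and 0.42 ± 0.08 above (limma adjusted p = 0.00231 and 0.00361), and Casp12 by 0.46 ± 0.14 above (adjusted p = 0.0328). Ero1a, an ER oxidase, rose by 0.35 ± 0.13 in Tg+ below (adjusted p = 0.0382). Map3k5, a stress kinase also called ASK1, fell by 0.56 in Tg+ below (adjusted p = 0.014) and by 0.60 in wild type above (adjusted p = 0.0197). Only 3 of 20 cytosolic aminoacyl-tRNA synthetases were tested, which does not show that the others were too dim. Of the 3, Mars1 fell by 0.35 in Tg+ below (limma adjusted p = 0.0397) and Farsb by 0.37 in Tg+ above (adjusted p = 0.0284). When the weak arrays were dropped, 2 of the 3 fell in Tg+ above, while Tg+ below kept only 1 I/R array.

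**Figure D4:**
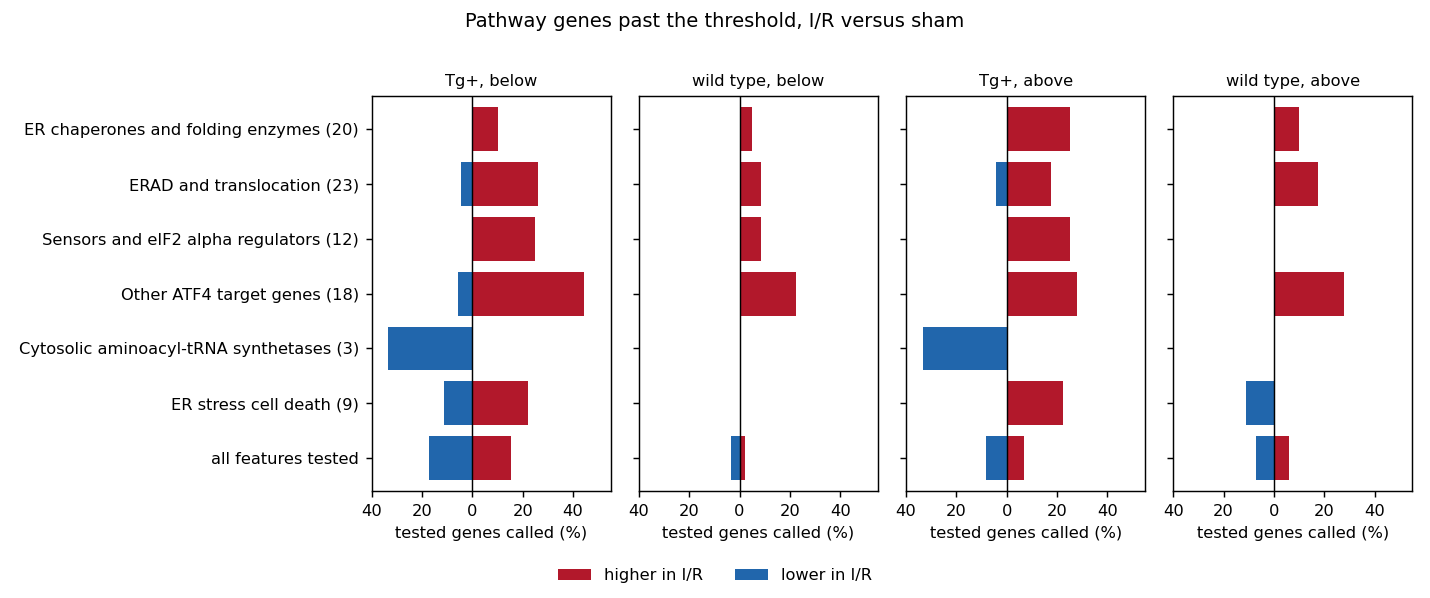
Percentage of the tested genes of each list (number in brackets) that passed the threshold, higher in I/R to the right of 0 and lower to the left, in the 4 comparisons of I/R with sham; the bottom bar is the share over all 11419 genes. Of the 18 other ATF4 target genes, 8, 5, 4 and 5 are higher in Tg+ below, Tg+ above, wild type below and wild type above. The shares of all genes higher are 15.3%, 6.94%, 2.14% and 5.96% in that order.

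Markers of other cells moved with the same comparisons. The 3 tested of 6 neutrophil markers (Csf3r, Cxcr2 and Ngp were not tested) were higher after I/R in all 4. When the weak arrays were dropped, the counts were 3, 3, 3 and 1 in Tg+ below, Tg+ above, wild type below and wild type above. Their median log2 ratio per array ran from -1.53 to 0.60 over the I/R groups, against -2.55 to -2.05 over the sham groups. Of 8 macrophage markers 3 rose in Tg+ below, 4 in Tg+ above, 1 in wild type below and 4 in wild type above, and 3, 5, 1 and 5 without the weak arrays. Of 5 tested atrial markers 2 rose in Tg+ above and 1 in wild type above, with median differences of 2.68 and 2.57, and 1 rose in Tg+ below. When the weak arrays were dropped, all 5 rose in Tg+ above and none in wild type below. Tg+ below and wild type above then kept 1 I/R array each, for these and all other markers. With all arrays, the atrial median log2 ratio per array ran from -0.05 to 2.89 in wild-type I/R above. Both tested epicardial markers of 4 (Upk3b and Wt1 were not tested) rose in Tg+ below, Tg+ above and wild type above, and neither in wild type below. Their medians were 0.93, 1.11, 1.13 and 0.46 in that order. Of 8 fibroblast markers 1 rose in Tg+ below and 2 in Tg+ above, and 0 and 6 without the weak arrays. In wild type none rose below or above, and 0 and 3 without them. Of 7 endothelial markers 2, 0, 2 and 3 fell in Tg+ below, Tg+ above, wild type below and wild type above. Without the weak arrays 2, 1, 3 and 2 fell, and 2 rose in Tg+ above. Of 5 smooth muscle and pericyte markers 1, 2, 0 and 1 rose and 1, 1, 1 and 2 fell in that order. The 1 erythroid marker tested of 3 did not pass, and was lower in all 4 without the weak arrays. The ventricular markers had medians of -0.44, -0.19, -0.30 and -0.33 in Tg+ below, Tg+ above, wild type below and wild type above, with 3, 1, 2 and 2 of 10 lower. Of 7 plasma cell and B cell markers 2 were tested and none passed, and Jchain, Mzb1 and Igkc were among those not tested. No T cell marker was among the genes tested. The part of these cells in the results was not tested, and in these bulk samples fewer cells of a type and less RNA per cell cannot be told apart.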

How the data were processed

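Transcripts were measured on 24 two-colour Agilent arrays, 3 per group, from 50 ng of RNA. Per the file headers, Feature Extraction 9.5.3.1 gave the deposited intensity values (mean spot signal and median local background, linear, not normalized), flags (other values, deposited as 0 or 1) and Agilent's log10 ratio. The authors also deposited a table of log2 ratios, Cy5 over Cy3 (correlation with Agilent's ratio at least 0.986); the sources used here do not give its centring. One protocol label names Cy3 for the heart RNA, but the label and source fields name Cy5.

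In limma 3.58.1 (R 4.3.3), background was corrected by normexp (offset 50) and ratios normalized by loess within arrays. No spot was saturated. Of 41174 probes, 15412 were kept because every array of some group had its Cy5 spot well above background; the brightest per gene gave 11419 genes. Symbols were updated through a RefSeq table. The model had 8 group means on 24 arrays (16 residual degrees of freedom), without a term for the heart, and was tested on simulated data. P-values were adjusted by Benjamini-Hochberg within a comparison (threshold 0.05); values after ± are SEs. All groups share 1 spread; the median SD was 0.192 on I/R and 0.0983 on sham arrays. The arrays lay on 7 slides. Deviations of the same-numbered pieces above and below the tie correlated at 0.14 to 0.54 in the 6 Tg+ pairs and -0.73 to 0.53 in the 6 wild-type pairs. The heart was also fitted as a block for below against above. This takes the replicate number to mark the heart, which the labels do not state. The 8 genes, the lists, the named genes (up to 4 per list with the smallest adjusted p, and the 3 most alike to each called gene) and the motifs were chosen with earlier results of these data known. Alternatives are given at the end.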

Additional observations from a re-analysis of the deposited data

How the results depend on the processing

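Of 74 values of the 6 called differences under other settings, 53 still passed the threshold and 21 did not, and none changed direction; of 36 with 1 array left out, 20 passed and 16 did not, and none changed direction. The 49 values that changed direction under other settings, of 614, and the 33 of 312 with 1 array left out all belong to differences that were not called. The cause was not tested. With few arrays and dim probes, signal over background limits 6 of the 8 genes. The alternative that describes the lists without the weak arrays was chosen after seeing the data.

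Numbers of the 8 genes past the threshold moved as follows. With slide as a block there were 0 in Tg+ below, Tg+ above and wild type below for I/R against sham, and 0 for Tg+ against wild type after I/R below. With only the arrays of a comparison there were 2 in Tg+ above, 0 in wild type below and 0 for Tg+ against wild type after I/R below. In Tg+ below it was 2, without Herpud1 (-0.93, limma adjusted p = 0.0505). Keeping genes well above background on all arrays left Herpud1 and Hspa5, with 1, 0 and 0 in Tg+ below, Tg+ above and wild type below. No filter gave 0 in Tg+ above and 0 in wild type below, and no background correction 2 and 2. The Cy5 channel alone gave 0 in Tg+ above, 0 in wild type below, 1 in wild type above, 2 for Tg+ against wild type after I/R below and 1 for below against above in Tg+ I/R. Agilent's ratio and the series table each gave 0 in wild type below, 2 for Tg+ against wild type after I/R below and 1 for below against above in Tg+ I/R. Some numbers hid an exchange. With Agilent's ratio and the series table, Trib3 was gained in Tg+ below (1.01, adjusted p = 0.0195), and in Tg+ above Ddit3 was lost (-0.72) and Asns gained (1.04, adjusted p = 0.0354). With those ratios the called differences were 2.34 for Asns, -1.16 for Ddit3 and -0.90 for Herpud1 in Tg+ below, -1.17 for Ddit3 in wild type below and -1.38 for Herpud1 in Tg+ against wild type. Array weights gave 2 in Tg+ above, wild type below and wild type above, 5 for Tg+ against wild type after I/R below, 1 for it in sham above, 3 and 2 for below against above in Tg+ and wild-type I/R, 3 and 1 for genotype by surgery below and above, and 2 and 1 for piece by surgery in Tg+ and wild type. Without the weak arrays there were 1 and 2 in Tg+ below and above and 2 and 1 in wild type below and above. With 1 array left out the number was 0 to 1 in Tg+ above and in wild type below, 0 to 4 for Tg+ against wild type after I/R below, 0 to 2 for below against above in Tg+ I/R and 0 to 2 for genotype by surgery below.

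Directions changed as follows (log2). With Agilent's ratio and the series table, Atf4 was -0.01 in Tg+ below, -0.30 in Tg+ above, -0.28 in wild type below and -0.09 in wild type above, Hspa5 -0.20 in Tg+ above and -0.13 in wild type below, and Xbp1 -1.15 and Chac1 -0.17 in Tg+ below; this ratio moved the median of all genes by -0.24, -0.07, -0.21 and -0.17 in Tg+ below, Tg+ above, wild type below and wild type above. With the Cy5 channel alone, Atf4 was -0.12 in Tg+ above, -0.18 in wild type below and -0.06 in wild type above, Hspa5 -0.06 in Tg+ above and -0.02 in wild type below, Xbp1 -0.33 in Tg+ below and -0.01 in wild type above, and Tg+ minus wild type after I/R was 0.07 for Hspa5 and 0.02 for Xbp1 above and 0 for Ddit3 below. With slide as a block, Hspa5 was 0.01 in Tg+ below and -0.16 in wild type below, Herpud1 0.17 and Atf4 -0.02 in Tg+ above, Trib3 -0.04 in wild type above, and Tg+ minus wild type after I/R above 0.06 for Hspa5 and -0.17 for Ddit3. With array weights, Chac1 was -0.07 in Tg+ below, Hspa5 -0.16 and Trib3 -0.02 in wild type below, and Tg+ minus wild type after I/R 0.61 for Hspa5 and -0.03 for Ddit3 above and -0.23 for Ddit3 below. Without the weak arrays, Atf4 was -0.07 in Tg+ below and -0.25 in wild type above, Hspa5 -0.25 in wild type below and 0.24 in wild type above, and Tg+ minus wild type after I/R 0.28 for Atf4 and 0.11 for Asns above and -0.06 for Atf4 below. With no background correction, Chac1 was -0.03 in Tg+ below, Herpud1 0.01 in Tg+ above, and Ddit3 -0.04 for Tg+ minus wild type after I/R below.

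With 1 array left out, Hspa5 ran from -0.24 to 0.16 in Tg+ below, -0.21 to 0.18 in Tg+ above, -0.25 to 0.39 in wild type below and -0.40 to 0.28 in wild type above, Chac1 from -0.04 to 0.21 in Tg+ below, Herpud1 from -0.24 to 0.21, Atf4 from -0.02 to 0.17 and Xbp1 from -0.18 to 0.03 in Tg+ above, Trib3 from -0.04 to 0.07 in wild type below and -0.01 to 0.10 in wild type above, and Atf4 from -0.10 to 0.32 in wild type above. Tg+ minus wild type after I/R ran from -0.56 to 0.11 for Hspa5, -0.28 to 0.13 for Atf4 and -0.17 to 0.04 for Xbp1 above, and from -0.62 to 0.02 for Hspa5 and -0.15 to 0.08 for Ddit3 below. The share of all genes called ran, over the settings other than leaving out 1 array, from 2.08% to 63.9% in Tg+ below, 3.17% to 45.8% in Tg+ above, 0% to 20.4% in wild type below, 2.26% to 49.3% in wild type above and 0% to 63.6% for Tg+ against wild type after I/R below, highest with array weights.

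Replicate numbers did not pair samples across surgery or genotype, where 4 of 24 same-numbered pairs had deviations that correlated above 0.1. With the heart as a fixed replicate block, chosen after seeing the data, 1 of the 8 genes passed for below against above in Tg+ I/R. With the replicate number as a block no call among the 8 genes changed, and Herpud1 in Tg+ below was -0.93 (limma adjusted p = 0.0169); with the heart as a random block (correlation 0.0761) it was -0.93 (adjusted p = 0.013).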
